A study of Mus musculus with 6 samples.

Results

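The DNase II and DNase I family nucleases were followed in the RNA of newborn mouse eyeballs. They are represented by 6 genes: Dnase2b and Dnase2a of the DNase II family, Dnase1, Dnase1l1 and Dnase1l3 of the DNase I family, and Endog, a mitochondrial nuclease of another fold that was followed with them. Members were taken by name, as probe sets whose array annotation gives exactly 1 gene and that gene is a member, which gave 8 probe sets among the 22626 tested. For each gene the brightest of its probe sets, by the mean log2 value of all 6 arrays, was used. This gave 6 genes of the 12393 that some probe set names alone, and the dimmer probe sets of Dnase1l3 and Endog are given beside it. All 6 genes were measured. Dnase1l2, a further DNase I family gene, was not among the members and is given with the other DNA nucleases. The comparison asks whether the RNA of another nuclease was higher where that of Dnase2b was low.

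The mutant eyeballs came from 3 Brg1 cKO pups, which the study describes as homozygous for floxed Brg1 alleles (Brg1 flox/flox) and heterozygous for the Le-Cre transgene, and the controls from 3 wild type pups, all at postnatal day 1 and on a mixed background. Le-Cre is driven by the ectodermal enhancer of Pax6 and is active in the head surface ectoderm that forms the lens. Tissues of other origin are not its target, although the study describes occasional germline deletion. Brg1, a chromatin remodeling ATPase, is the product of Smarca4. Controls are wild type by their labels, whereas Brg1 flox/flox mice served as controls in the study's general description, so whether these 3 pups carried floxed alleles is not settled. Each array held 1 whole eyeball, since mutant lenses were too fragile to dissect, and the study describes incomplete deletion and eye defects that vary between mutants. The study saw no phenotypic difference between Le-Cre and wild type mice. With no Le-Cre pup among the arrays, effects of the transgene and of Brg1 loss on RNA cannot be told apart.

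Lens fiber cells lose their nuclei and other organelles as they mature, which keeps the lens transparent. Dnase2b, also called DLAD, is the acid nuclease of lens fiber lysosomes, and mice without it retain DNA in the lens core. Its relative Dnase2a is found in the lysosomes of most tissues, where macrophages use it to digest the DNA of engulfed nuclei. DNase I family enzymes need calcium and magnesium and act at neutral pH, mostly outside the cell or on material released from dying cells. Transcription of Dnase2b in the mouse lens depends on the heat shock factor Hsf4.

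The bases just before the start of Dnase2b and Dnase2a are shown because the 2 DNase II genes gave different values in the same eyeballs. Both windows hold the 250 bases before the RefSeq start in GRCm38.p6 and are written in the direction of the gene. For Dnase2b, at chr3:146615599-146615848 on the minus strand, capitals mark GAANNTTC, an inverted repeat of the heat shock factor unit, and TAATTA, a homeodomain core.

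Dnase2b: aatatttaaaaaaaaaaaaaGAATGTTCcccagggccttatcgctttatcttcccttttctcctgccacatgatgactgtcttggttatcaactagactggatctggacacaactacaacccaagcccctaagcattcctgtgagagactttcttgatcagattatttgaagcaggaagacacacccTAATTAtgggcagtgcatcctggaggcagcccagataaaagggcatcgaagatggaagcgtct

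For Dnase2a, at chr8:84908505-84908754 on the plus strand, capitals mark each CG dinucleotide.

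Dnase2a: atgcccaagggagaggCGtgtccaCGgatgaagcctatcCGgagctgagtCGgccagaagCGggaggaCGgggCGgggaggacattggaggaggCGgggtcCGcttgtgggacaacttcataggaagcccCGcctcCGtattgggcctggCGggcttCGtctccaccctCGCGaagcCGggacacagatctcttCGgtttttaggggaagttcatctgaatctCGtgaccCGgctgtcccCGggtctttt

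The windows differed in base composition. The Dnase2b window held 3 CG dinucleotides and 43.6% G and C, and the Dnase2a window held 20 and 62.4%. Across all 32851 promoter windows of that length the median was 6 CG dinucleotides, and 16.3% of windows held more than that of Dnase2a. The windows of Dnase1 held 3 CG dinucleotides each, those of Dnase1l1 held 9 and 7, and that of Endog held 13. RefSeq windows were matched for 5 of the 6 genes, all but Dnase1l3, with 2 windows each for Dnase1 and Dnase1l1.

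Both marked motifs were chosen after the Dnase2b window had been read, and their presence is a description of the letters only. GAANNTTC stood 230 to 223 bases before the start of Dnase2b, and 6.69% of all windows hold it. TAATTA stood 63 to 58 bases before the start, and 4.84% of all windows hold it. Neither was found in the windows of the other members. Both strands were searched, which for these palindromes gives each match once. The reverse spacing TTCNNGAA, held by 7.17% of all windows, was found in no member's window, and TATAAA, held by 12.4%, was found in those of Dnase1 alone.

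Measures of array quality overlapped between the genotypes. Median intensity ran from 180.0 to 185.5 in Brg1 cKO and from 169.1 to 184.6 in wild type arrays, and the excess of 3′ over 5′ actin control signal ran from 0.98 to 1.34 log2 units in Brg1 cKO and from 0.93 to 1.12 in wild type. Brg1 cKO 1 was male by Xist and Y-linked genes and the other 5 pups were female. Smarca4 was measured by 2 probe sets that did not pass the test (log2 differences 0.18, SE 0.19, and -0.70, SE 0.30, with limma adjusted p = 0.866 and 0.598), and since whole eyeballs hold tissue outside Le-Cre activity it does not check the labels. All 16 lens fiber marker genes and all 12 retina marker genes averaged above the 25th percentile of all values in wild type. Most genes did, since 2655 of 12393 averaged under it, so this alone does not show which tissues the eyeballs held. That percentile, 4.83 on the log2 scale, is used below as a mark of dim probe sets.

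Dnase2b stood far below its wild type level in every Brg1 cKO eyeball. Its RMA signal on the log2 scale was 3.15, 5.78 and 2.67 in Brg1 cKO 1 to 3, against 8.07, 8.52 and 8.90 in wild type 1 to 3. All mutant values lay under all control values, and Brg1 cKO 2 kept the most signal. On the linear scale these readings were intensities of 8.86, 55.1 and 6.38 in Brg1 cKO, against 268, 366 and 477 in wild type.

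The mean was 3.87 ± 1.68 in Brg1 cKO and 8.49 ± 0.42 in wild type (log2, SD, n = 3 each), a difference of -4.63 (SE 0.75), or 24.7-fold lower in Brg1 cKO. The 95% confidence interval ran from 7.26-fold to 84.0-fold lower. Both depend on dim readings: with values under the 25th percentile set to it the difference was -3.35, or 10.2-fold lower (limma adjusted p = 0.208), and with 16 added to each intensity it was -3.47, or 11.1-fold lower (adjusted p = 0.104). Over all probe sets the limma adjusted p was 0.0618, just short of the 0.05 threshold, and it ranged from 0.00129 to 0.254 over the alternative fits. It passed at 0.00129 when Brg1 cKO 2 was left out, with a log2 difference of -5.58. An exact permutation test, two-sided, gave p = 0.1, the smallest that 3 arrays against 3 allow. In whole eyeballs fewer lens cells and less Dnase2b RNA per lens cell cannot be told apart.

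By size, the difference of Dnase2b was the second lowest of all 12393 genes. With each array left out in turn it ranked from 2 to 6, and it ranked 8 when all values under the 25th percentile were set to it. The readings in Brg1 cKO 1 and 3 were at the bottom of the scale. As a gauge of a transcript that is not there, Y-linked genes in the 5 arrays of female pups read 2.10 to 3.25 on the log2 scale, with a median of 2.81 over 15 values. A second gauge, Xist in the male pup, read 2.34 to 4.88, with a median of 2.67 over 3 values. Readings of 3.15 and 2.67 fall within both ranges, so the size of the fold rests on a dim signal.

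**Figure D1:**
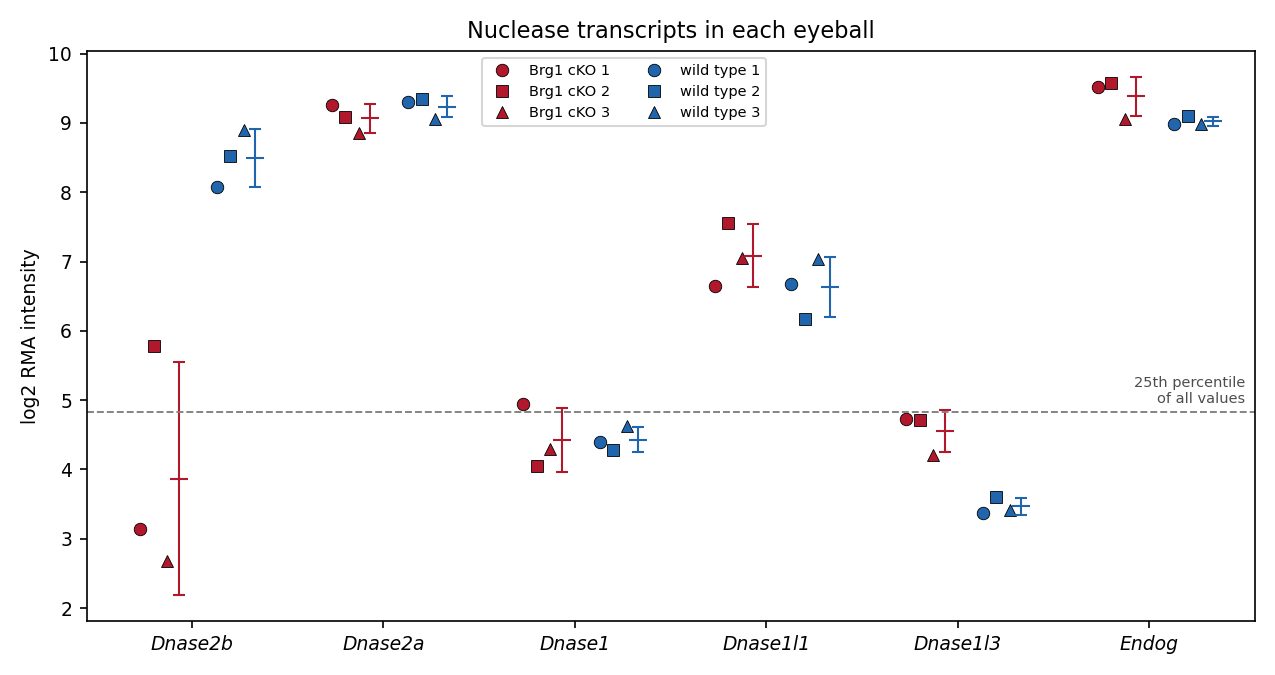
Log2 RMA intensity of each nuclease (vertical axis) in every array, with Brg1 cKO in red on the left and wild type in blue on the right of each gene, symbols for replicates 1 to 3, and bars for the mean ± SD of 3 arrays. Dnase2b reads 2.67 to 5.78 in Brg1 cKO and 8.07 to 8.90 in wild type, while Dnase2a lies between 8.85 and 9.35 in all 6 arrays, and the dashed line marks 4.83.

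The lens as a whole gave less signal in the same eyeballs. Of the 16 lens fiber marker genes measured, 0 were higher and 2 lower past the adjusted p threshold, with a median log2 difference of -2.35, beside 53 higher and 33 lower of 12393 genes and a median of 0.02 over all genes. All 16 had a negative difference, and 15 were called at an unadjusted limma p under 0.05, or 93.8%, where 9.30% of all genes were. The 2 past the adjusted threshold were Caprin2, an RNA-binding protein of lens development (-2.25, SE 0.30, limma adjusted p = 0.029), and Gja3, a connexin of fiber gap junctions (-3.15, SE 0.43, adjusted p = 0.032). The summed intensity of the 16 markers ran from 25185 to 100920 in Brg1 cKO arrays and from 156203 to 174462 in wild type arrays. Cryaa stayed bright, at 12.27 to 13.41 in Brg1 cKO and 13.93 to 14.01 in wild type. The measured crystallins differed in size of change, from -3.80 for Crygn to -0.75 for Cryba1. Crygn read 9.32, 10.47 and 6.31 in Brg1 cKO 1 to 3, against 12.20, 12.69 and 12.62 in wild type. The part of lens tissue loss in the Dnase2b difference was not tested.

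On the deposited scale the mean difference of Dnase2b was larger than those of the lens markers. Its departure from the wild type mean was -5.35, -2.71 and -5.82 log2 units in Brg1 cKO 1 to 3, beside list medians of -2.40, -0.80 and -3.48. The mutants stood in the same order by both, with Brg1 cKO 2 the least and Brg1 cKO 3 the most changed. On the mean, none of the 16 markers had a lower difference, which ran from -4.48 for the filament protein Bfsp1 to -0.75. In Brg1 cKO 3 alone, 2 of the 16 departed further than Dnase2b, the lowest by -6.32.

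Taken array by array, Dnase2b minus the lens median was -2.95, -1.91 and -2.34 in Brg1 cKO, against -0.34, -0.11 and 0.46 in wild type. The groups did not overlap, and the difference of means was -2.40 (exact two-sided permutation p = 0.1). The low end of the scale bore on this. With values under the 25th percentile set to it, the 3 Brg1 cKO departures became -1.27, -1.91 and -0.18, the groups overlapped, the difference was -1.12 (exact permutation p = 0.2), and 3 of the 16 markers had a lower difference than Dnase2b. This comparison was chosen after the data were seen.

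**Figure D2:**
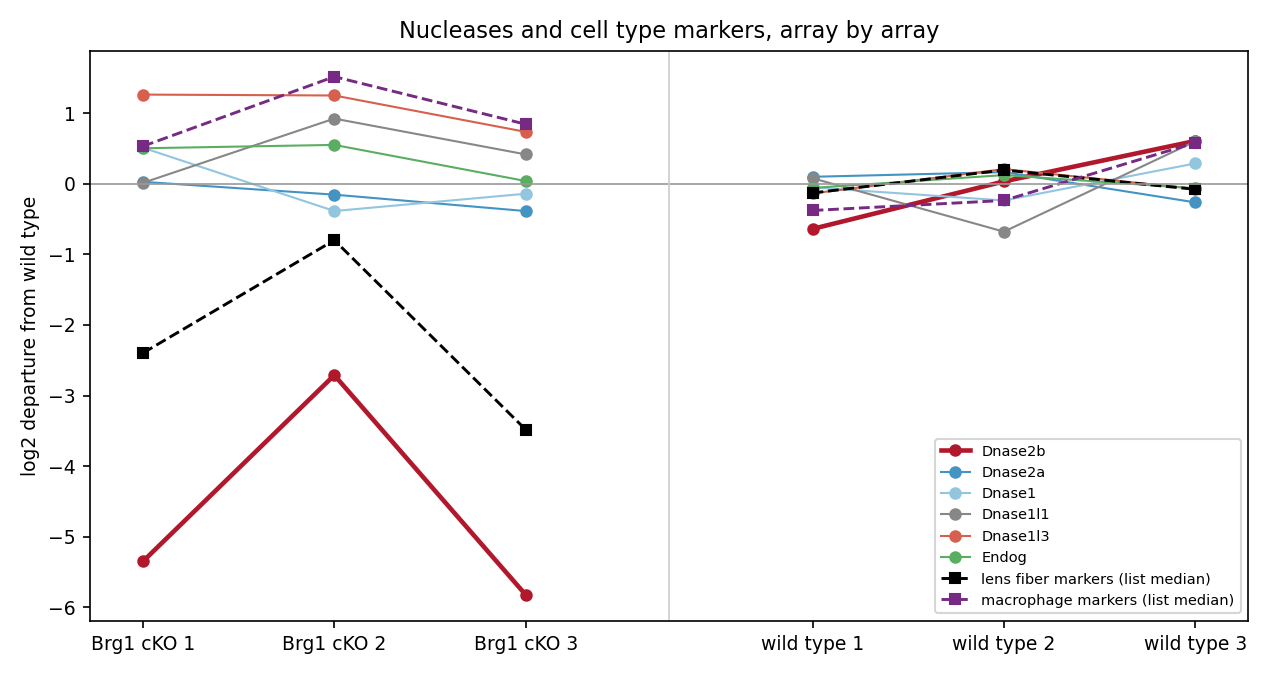
Log2 departure from wild type (vertical axis) of each nuclease and of the medians of 16 lens fiber and 22 macrophage marker genes, for Brg1 cKO 1 to 3 on the left and wild type 1 to 3 on the right, where a wild type array is set against the other wild type arrays. Lines join the values of one gene or list and imply no order of the replicates, and Dnase2b lies under the lens median in each Brg1 cKO array.

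The pattern of Dnase2b over the arrays was set against those of other genes. Among 2256 genes with an SD of at least 0.5 over the 6 arrays, the highest Pearson correlation across arrays was with Tdrd7, an RNA granule protein needed for a clear lens (r = 0.998). Emid1 followed (r = 0.996), then Mip, the lens water channel aquaporin 0 (0.992), Tmem40 (0.991), the crystallin Cryaa (0.989) and Bfsp1 (0.986). The 6 points of each gene fall into 2 genotypes, so these values describe a shared contrast and a shared order of the mutants. A further limit is that 97 genes reached r of 0.9, and that the lens markers had a median r of 0.942 with a range from 0.621 to 0.992. When low values were set to the 25th percentile, 1 of these 6 genes stayed among the 6 most alike, Tdrd7, and the others were Hsf4, which had the highest correlation (0.991), Upk3b, Npy, Cnmd and Adh1.

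**Figure D3:**
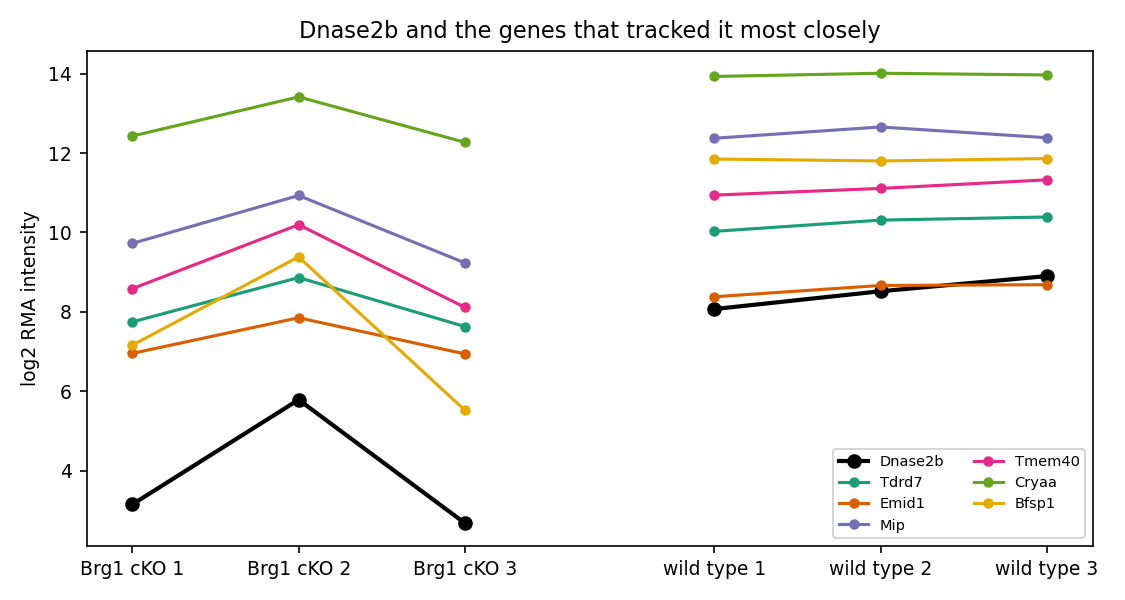
Log2 RMA intensity (vertical axis) of Dnase2b in black and of the 6 genes most like it, in Brg1 cKO 1 to 3 on the left and wild type 1 to 3 on the right, with lines joining the values of one gene and no order among replicates. Every gene shown reads highest among the mutants in Brg1 cKO 2 and lower in each mutant than in any wild type array.

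The regulators of lens fiber denucleation gave mixed differences, 3 positive and 10 negative. Of the 13, 0 were higher and 1 lower past the limma threshold (4 at an unadjusted p under 0.05, or 30.8%, where 9.30% of all genes were), with a median log2 difference of -0.19. The one past the threshold was Prox1, a homeodomain factor of fiber cells, with 5.15, 4.63 and 5.19 in Brg1 cKO, against 6.64, 6.94 and 6.83 in wild type (-1.82, SE 0.21, limma adjusted p = 0.021). The mutant values of Prox1 lay close together and all under the controls, with Brg1 cKO 2 the lowest, unlike Dnase2b.

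Hsf4 read 4.79, 5.54 and 3.28 in Brg1 cKO, against 6.84, 7.53 and 7.32 in wild type. Its groups did not overlap and its mutants stood in the order of Dnase2b, but the difference of -2.69 (SE 0.54) missed the threshold (limma adjusted p = 0.126). Tdrd7 read 7.75, 8.86 and 7.63 in Brg1 cKO, against 10.03, 10.31 and 10.39 in wild type, a difference of -2.16 (SE 0.34, adjusted p = 0.0535). The other 10 regulators had differences from -1.06 for Gata3, a zinc finger factor of fiber differentiation, to 0.19 for Maf, a driver of crystallin transcription, with adjusted p of 0.521 or more. Some of them were dim already in wild type. Sox1 and Foxe3 averaged 3.86 and 4.49 there, under the mark of 4.83, and Pitx3 and Maf averaged 5.27 and 5.37. Signals this close to the low end can hide a fall, so small differences of these genes do not show unchanged RNA.

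No nuclease passed the adjusted threshold. Over the 6 genes, 0 were called at a limma adjusted p under 0.05, where 0.508% of all probe sets were called. At an unadjusted p under 0.05, 2 of 6 were called, where 8.40% of all probe sets were, and the 2 groups of arrays did not overlap for 2 of 6, where 13.7% of all probe sets had no overlap (7.31% with Brg1 cKO higher and 6.44% with it lower). Both counts rest on Dnase2b, lower, and Dnase1l3, higher.

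Dnase2a, the nearest relative of Dnase2b, was bright in all eyeballs. It read 9.26, 9.08 and 8.85 in Brg1 cKO, against 9.30, 9.35 and 9.06 in wild type. The groups overlapped, and Brg1 cKO 3, with the least Dnase2b, also had the lowest Dnase2a value of the 6. The difference was -0.17 (SE 0.19, limma adjusted p = 0.866, exact permutation p = 0.3), with a 95% interval from 1.53-fold lower to 1.20-fold higher. The interval holds no rise of Dnase2a in whole eyeballs above 1.20-fold, and a rise confined to lens cells was not measured apart. The name of this probe set marks that some of its probes may match other transcripts.

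Endog, which cuts DNA after its release from mitochondria, had slightly higher means in Brg1 cKO by both probe sets. The brighter read 9.52, 9.57 and 9.06 in Brg1 cKO, against 8.98, 9.10 and 8.98 in wild type, and Brg1 cKO 3 lay within the wild type range. The difference was 0.36 (SE 0.20, limma adjusted p = 0.708, exact permutation p = 0.2), with a 95% interval from 1.07-fold lower to 1.77-fold higher. The dimmer read 7.05, 7.49 and 6.60 in Brg1 cKO, against 6.49, 6.77 and 6.37 in wild type. It gave the same sign and order of the mutants, a difference of 0.50 (SE 0.26, adjusted p = 0.689, exact permutation p = 0.2) and an interval from 1.07-fold lower to 2.15-fold higher.

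Dnase1l1, an X-linked member known from human tissue as a membrane-anchored enzyme of muscle, varied within both groups. It read 6.64, 7.55 and 7.05 in Brg1 cKO, against 6.68, 6.18 and 7.03 in wild type. The groups overlapped, and the difference of 0.45 (SE 0.31, limma adjusted p = 0.779, exact permutation p = 0.4) had a 95% interval from 1.21-fold lower to 2.25-fold higher. The arrays with the most Dnase1l1 in each group were also those with the most muscle signal. A list was summarised per array by its median departure from wild type, called its shift, with each wild type array set against the others of its group. For 13 skeletal muscle markers it was -0.54, 0.66 and 0.37 log2 units in Brg1 cKO 1 to 3, against -0.57, -0.44 and 1.03 in wild type, with 0 markers called by limma in either direction (0 at an unadjusted p under 0.05) and summed intensities from 32672 to 78155 in Brg1 cKO and from 40954 to 67693 in wild type. The same 2 arrays also had the highest shift of their group in the macrophage markers (1.52 in Brg1 cKO 2 and 0.58 in wild type 3) and in the lysosome list (0.37 and 0.28). The part of muscle or of these lists in the Dnase1l1 values was not tested.

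Dnase1, the secreted enzyme that gives the family its name, was dim. It read 4.94, 4.05 and 4.29 in Brg1 cKO, against 4.40, 4.27 and 4.62 in wild type, and 5 of the 6 values lay under the 25th percentile. The groups overlapped, with the male pup, Brg1 cKO 1, the highest. The difference was -0.01 (SE 0.26, limma adjusted p = 0.998, exact permutation p = 1), and its sign changed with the settings. Its interval ran from 1.53-fold lower to 1.52-fold higher, and a signal this close to the low end can hide larger differences in RNA.

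Dnase1l3, a secreted nuclease that macrophages and dendritic cells make and that degrades chromatin in microparticles, was the one member other than Dnase2b whose groups did not overlap. It read 4.73, 4.72 and 4.20 in Brg1 cKO, against 3.38, 3.61 and 3.42 in wild type. Each mutant lay above each control, yet all 6 values were under the 25th percentile. They also lay under 4.88, the highest Xist reading in the male pup. The difference was 1.08 (SE 0.21), or 2.12-fold higher in Brg1 cKO, with a 95% interval from 1.52-fold to 2.96-fold higher, a limma adjusted p of 0.109 and an exact permutation p of 0.1.

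The other probe set of Dnase1l3 did not show this. It read 3.29, 3.52 and 2.96 in Brg1 cKO, against 3.19, 3.03 and 3.54 in wild type. Here the groups overlapped, and the difference was 0.00 (SE 0.22, limma adjusted p = 0.999), with an interval from 1.44-fold lower to 1.44-fold higher. Averaged over both probe sets the difference of Dnase1l3 was 0.54 (adjusted p = 0.424). With 16 added to each intensity before the logarithm it was 0.55, and with low values set to the 25th percentile all 6 were equal.

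**Figure D4:**
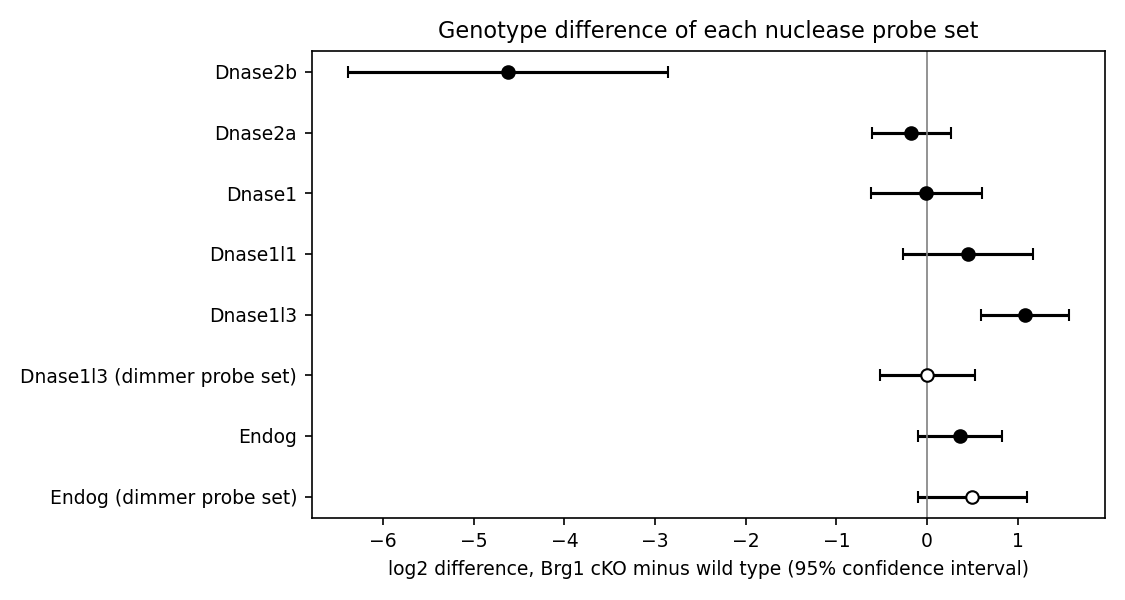
Log2 difference, Brg1 cKO minus wild type (horizontal axis), of all 8 nuclease probe sets, where points are differences between means of 3 arrays each, filled for the brighter probe set of each gene and open for the dimmer, and bars are 95% confidence intervals of limma. The interval of Dnase2b, from -6.39 to -2.86, lies apart from all others, and that of the brighter Dnase1l3 probe set, from 0.60 to 1.56, lies above 0 while that of the dimmer spans it.

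Genes most like Dnase1l3 across the arrays were Slc26a4, an anion exchanger (Pearson r = 0.978), Lat2, an adaptor of blood cell receptors (0.974), Rin1, a Ras effector (0.973), and Stat2, a transcription factor of interferon signaling (0.971). Gpr65, a proton-sensing receptor of immune cells (0.971), and Fgfr4, a growth factor receptor (0.970), followed. Since they were chosen for their likeness to a gene whose groups did not overlap, that theirs did not overlap either restates the choice. All values of Slc26a4 and Gpr65 lay under the 25th percentile.

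Markers of macrophages, which make Dnase1l3 and Dnase2a, had higher means in Brg1 cKO. All 22 had a positive difference, against 52.9% of all genes, with 2 higher and 0 lower past the threshold and a median of 1.05. The 2 past the threshold were Cd14, a receptor for bacterial lipopolysaccharide (5.92, SE 0.55, limma adjusted p = 0.008), and Mpeg1, a pore-forming protein of macrophages (2.37, SE 0.26, adjusted p = 0.017). The median shift of the 22 markers was 0.53, 1.52 and 0.84 in Brg1 cKO 1 to 3, against -0.38, -0.24 and 0.58 in wild type. The summed intensity of the 22 ran from 9695 to 22356 in Brg1 cKO and from 4775 to 7263 in wild type. The shifts overlapped between the genotypes, since Brg1 cKO 1 lay under wild type 3. Brg1 cKO 2 held the most macrophage signal, while Dnase1l3 read alike in Brg1 cKO 1 and 2, and Itgam was under the 25th percentile in both groups. Epidermis markers gave mixed differences, 14 positive and 4 negative. Of 18 measured, 5 were higher and 0 lower past the limma threshold, where 53 and 33 of 12393 genes were. The median was 0.83, with shifts of 0.45, 1.31 and 1.03 in Brg1 cKO, against 0.05, 0.24 and -0.13 in wild type, which did not overlap. The 5 past the threshold were the keratins Krt16 (6.93, SE 0.40, adjusted p = 0.000901) and Krt6b and the cornified envelope genes Sprr1a, Sprr1b and Sprr2d. Negative differences included those of the keratins Krt1 (-0.60), Krt10 (-0.37) and Krt5 (-0.02). The list had summed intensities from 10823 to 18593 in Brg1 cKO and from 4405 to 6315 in wild type. The part of macrophages or of epidermis in the Dnase1l3 difference was not tested.

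The difference of Dnase2b was set against that of each other nuclease within the same arrays. Dnase2b minus Dnase2a averaged -5.20 ± 1.64 in Brg1 cKO and -0.74 ± 0.54 in wild type (log2, SD, n = 3 each), so that Dnase2b changed by 4.46 log2 units more in the downward direction. The other 4 contrasts were -4.62 against Dnase1, -4.99 against Endog, -5.08 against Dnase1l1 and -5.71 against Dnase1l3. In all 5 the groups did not overlap, and each exact two-sided permutation p was 0.1, as was its Benjamini-Hochberg value over the 5 pairs, which is the smallest possible. These are not 5 separate results, since each holds the same Dnase2b values. Those did not overlap by themselves (2.67 to 5.78 in Brg1 cKO, 8.07 to 8.90 in wild type). How many other genes would give the same outcome beside Dnase2b was not computed. With low values set to the 25th percentile the 5 contrasts were between -3.80 and -3.17, still without overlap.

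A list of other DNA nucleases, with the nuclease inhibitor Dffa among them, gave small differences. Of 17 listed, 14 were measured, 0 were called by limma in either direction (2 at an unadjusted p under 0.05, or 14.3%, where 9.30% of all genes were), and 12 had a positive difference, or 85.7%, where 52.9% of all genes did, with a median of 0.17. Pld4, an endolysosomal exonuclease of single-stranded DNA, read 6.40, 7.15 and 6.54 in Brg1 cKO, against 5.68, 5.98 and 6.07 in wild type. Its groups did not overlap, with a difference of 0.79 (SE 0.25, limma adjusted p = 0.403). Samhd1, a dNTP hydrolase that also takes part in DNA end processing, likewise had no overlap (0.58, SE 0.20, adjusted p = 0.49), and 14.3% of the list had no overlap where 14.8% of all genes did. Dna2, a replication nuclease, had the largest negative difference (-0.44, SE 0.32, adjusted p = 0.792). Dffa, with 0.19, counts among the 12 positive differences. Dnase1l2 of the DNase I family read 6.91, 5.22 and 5.46 in Brg1 cKO, against 5.93, 6.18 and 5.39 in wild type. Its groups overlapped (0.03, SE 0.45, limma adjusted p = 0.992).

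The lysosome, in which both DNase II enzymes work, had mostly positive differences that were small. Of 26 measured genes 24 had a positive difference, or 92.3%, and 0 were called by limma (4 at an unadjusted p under 0.05, or 15.4%, where 9.30% of all genes were), with a median of 0.25. The 3 with the smallest p were Gla, alpha-galactosidase A (0.68, SE 0.23, limma adjusted p = 0.47), Npc1, a cholesterol exporter (0.47, SE 0.17, adjusted p = 0.507), and Gusb, beta-glucuronidase (0.53, SE 0.20, adjusted p = 0.517). By array the list median stood at 0.12, 0.37 and 0.11 in Brg1 cKO, against -0.21, -0.11 and 0.28 in wild type, so the groups overlapped. Dnase2a, at -0.17, had the sign of 2 of the 26 lysosomal genes.

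Genes that sense undigested DNA were given beside the nucleases. All 9 measured had a positive difference, where 52.9% of all genes did, with a median of 0.44, but 0 were called by limma. At an unadjusted p under 0.05 there were 4, or 44.4%, where 9.30% of all genes were called, and 5 of the 9 averaged under the 25th percentile in wild type. Ifi204, an interferon-inducible DNA sensor, read 4.63, 7.08 and 5.73 in Brg1 cKO, against 3.20, 2.73 and 3.12 in wild type (2.80, SE 0.56, limma adjusted p = 0.126). Irf7 (1.77, SE 0.49, adjusted p = 0.301), a factor that drives interferon transcription, and Zbp1 (2.34, SE 0.74, adjusted p = 0.419), a sensor of Z-form nucleic acid, followed. For these 3, named for the smallest p of the list, the groups did not overlap. That held for 5 of the 9 genes, or 55.6%, where 14.8% of all genes had no overlap. In all 3, Brg1 cKO 2, the mutant with the most Dnase2b and the most macrophage signal, was the highest. With dim probe sets filtered at the 25th percentile the median of the list was 0.74.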

How the data were processed

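Total RNA (50 ng per eyeball) was amplified, labelled with biotin and hybridised to Affymetrix mouse genome arrays, 1 per sample. The authors normalized the arrays by RMA (version not given in the sources used here), and deposited them as linear intensities. RMA equalises arrays, which compresses global differences. No detection calls were given, so dim probe sets have no bound. Intensities were converted to log2, and 64 control rows of 22690 were left out. The platform annotation gave 1 gene to 20380 probe sets, several to 691 and none to 1555. Genotypes were compared with limma 3.58.1 in R 4.3.3, genotype being the sole term, with Benjamini-Hochberg adjustment over 22626 probe sets. The script was tested on simulated data. The number of pups limits precision. Named genes are the members, Smarca4, genes past the threshold in any list, and the 6 genes most alike. The 3 genes of smallest p are named for the other nuclease, lysosome, regulator and DNA sensing lists. Cryaa, Crygn and Cryba1 beside the lens list, Krt1, Krt10, Krt5, Itgam, Gata3 and Maf were singled out after their values were seen. So were Sox1, Foxe3, Dnase1l2 and Dffa. Red blood cell markers (0 of 7 called by limma, 0 at an unadjusted p under 0.05) were computed but not described. The differences of the retina markers were not described either (0 of 12 called by limma, 1 at an unadjusted p under 0.05, or 8.33%, where 9.30% of all genes were). Members and lists were chosen with earlier results of these data known. Promoter sequences are from RefSeq. Alternatives were other moderation, a filter, a floor, an offset, other scalings, a replicate block, template matching as in the study, probe set averaging and leaving out each array.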

Additional observations from a re-analysis of the deposited data

How the results depend on the processing

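Dnase2b kept its direction in all 15 alternative fits. Its adjusted p passed the threshold with trended, robust moderation (0.031) and with probe sets averaged per gene (-4.63, 0.0359). It also passed with median centring (-4.67, 0.0492) and without Brg1 cKO 2. Template matching was judged on unadjusted p instead and gave 0.00972, where the main limma fit gave an unadjusted p of 0.0004. The difference of Dnase2b was smaller with the floor (-3.35, adjusted p = 0.208) and the offset (-3.47, 0.104). Leaving out each array gave -5.58 to -4.03. Dnase1l3 passed in no fit judged on adjusted p, of which the lowest was 0.0809. By template matching its unadjusted p was 0.00448 (1.08), where the main limma fit gave an unadjusted p of 0.00101. Dnase1 had a positive sign with a floor (0.037), an offset (0.0069) and quantile normalization (0.047), and ran from -0.26 to 0.18 with an array left out. The dimmer Dnase1l3 probe set turned to -0.044 with median centring and ran from -0.13 to 0.15; with a floor all values of both Dnase1l3 probe sets were equal, so their difference had no sign. Dnase2a, Dnase1l1 and Endog kept sign and call throughout.

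With the floor, Dnase2b minus Dnase2a, Dnase1l1, Dnase1l3 and Endog was -3.17, -3.80, -3.35 and -3.71, Dnase2b minus the lens median was -1.12, and 1 of the 6 most alike genes was shared. Counts of all, higher and lower probe sets called (115, 69 and 46) were 3, 0 and 3 with the floor and 32, 18 and 14 with the offset. With an array left out they were 24 to 216, 15 to 114 and 8 to 113. Template matching gave 820, 448 and 372, but it was judged on unadjusted p, so its counts are not at the same threshold. Same-numbered arrays deviated together only weakly (correlations 0.0597, 0.0820 and 0.125), so they share only a number, and a replicate block gave 45 calls, 34 higher and 11 lower. The causes of these shifts were not tested. Dim signals limit Dnase1, Dnase1l3 and the mutant readings of Dnase2b.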
